A study of Homo sapiens with 8 samples.

Results

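The minichromosome maintenance (MCM) family was followed in MP38 cells, an established uveal melanoma (UM) line that carries a BAP1 mutation. The 9 members were taken by name, MCM2 through MCM10, among the 35238 gene symbols of the count table, by a rule that sets no threshold on a measured value. All 9 of 9 were among the 15085 genes that passed the filter on low counts. The cells received one of 4 treatments for 24 h, each in 0.1% DMSO: the solvent alone as the control, 40 nM romidepsin, 40 nM quisinostat or 1200 nM mivebresib. Romidepsin, a cyclic depsipeptide, and quisinostat, a hydroxamic acid, are both inhibitors of histone deacetylases (HDAC). Mivebresib occupies the acetyl-lysine pockets of BET bromodomain proteins. Each treatment had 2 libraries of bulk, strand-specific mRNA sequencing from separate wells of 1 cell line, so the p-values measure the spread between wells and say nothing of other tumours or lines.

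MCM2 to MCM7 form the ring-shaped helicase that is loaded onto replication origins as an inactive double ring before S phase, and that unwinds DNA at the fork once CDC45 and the GINS complex have joined it. MCM10 acts when the loaded ring is switched on and does not belong to the ring, while MCM8 and MCM9 form a separate helicase that works in homologous recombination repair. Transcripts of the ring subunits are classical E2F targets that are high in cycling cells and low in resting ones, and their proteins are used in pathology as proliferation markers.

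Total counts ran from 28483235 to 29359024 per library. The control libraries differed from each other more than those of any drug, with a chi-square per degree of freedom over genes of 58.1 against 9.52 to 9.79, and control replicate 2 was above control replicate 1 for every one of the 9 members on the scaled level. The 7 melanocyte markers had a summed level of 3520 to 5120 CPM, with TYRP1 as the bulk of the sum. Not all were abundant: per library TYR held 42 to 111 reads and DCT 0 to 5. CPM are the reads of a gene divided by the library size, which was scaled for the member levels and left unscaled for these marker sums. The 11 markers of other cell types summed to 67.2 to 93.3 CPM, with CD68 as the bulk of the sum. In each library 2 to 5 of them were at 0 (CD3E, a T cell marker, in all 8). In bulk RNA, fewer cells that express a gene and less of its RNA per cell cannot be told apart.

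The start regions of the ring subunits are shown because they carry short words that E2F proteins are known to bind. RefSeq windows on GRCh38.p14, from 250 bases before to 50 after each start, were found for 7 of the 9 members (9 windows, of which 3 belong to MCM7); MCM4 and MCM5 were not among them. Each was searched on both strands for TTTCCCGC, TTTGGCGC, TTTCGCGC and TTTGCCGC, which can overlap each other on opposite strands of a palindromic site. At least 1 of the 4 words was present in 5 of the 9 windows, belonging to MCM2, MCM3, MCM6, MCM7 and MCM8, and in 3.31% of all 35116 windows. The lines below run 5′ to 3′ on the gene's own strand from 200 bases before the start to 20 after it, with matches to the 4 words in capitals. MCM10 is shown beside the ring subunits because its estimated fall was the largest under both HDAC inhibitors and it held none of the words. MCM7 is shown by the window of its 3 that held them.
MCM2 (chr3:127598211-127598430, plus strand): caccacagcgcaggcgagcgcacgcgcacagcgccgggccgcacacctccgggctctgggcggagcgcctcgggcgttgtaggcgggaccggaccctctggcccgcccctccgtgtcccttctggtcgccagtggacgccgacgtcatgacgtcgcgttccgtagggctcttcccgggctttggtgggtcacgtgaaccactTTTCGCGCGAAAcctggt
MCM3 (chr6:52284723-52284942, minus strand): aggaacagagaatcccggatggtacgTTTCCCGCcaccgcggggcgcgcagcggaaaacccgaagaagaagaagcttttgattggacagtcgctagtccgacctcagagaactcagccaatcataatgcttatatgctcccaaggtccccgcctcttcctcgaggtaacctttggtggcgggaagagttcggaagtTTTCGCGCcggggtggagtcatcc
MCM6 (chr2:135876424-135876643, minus strand): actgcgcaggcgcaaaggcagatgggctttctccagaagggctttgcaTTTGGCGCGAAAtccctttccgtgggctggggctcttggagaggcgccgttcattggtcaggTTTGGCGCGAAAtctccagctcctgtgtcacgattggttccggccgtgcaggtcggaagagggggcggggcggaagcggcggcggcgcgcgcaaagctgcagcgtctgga
MCM7 (chr7:100101378-100101597, minus strand): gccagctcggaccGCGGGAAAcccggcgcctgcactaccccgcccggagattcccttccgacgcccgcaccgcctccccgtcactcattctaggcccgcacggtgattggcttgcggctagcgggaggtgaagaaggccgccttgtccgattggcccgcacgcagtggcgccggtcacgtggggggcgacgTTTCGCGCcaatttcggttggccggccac
MCM10 (chr10:13161358-13161577, plus strand): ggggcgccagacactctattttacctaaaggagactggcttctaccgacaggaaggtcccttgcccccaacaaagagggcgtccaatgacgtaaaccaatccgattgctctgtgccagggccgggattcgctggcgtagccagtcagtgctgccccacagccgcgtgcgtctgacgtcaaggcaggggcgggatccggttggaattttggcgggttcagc
MCM6 held a pair of such sites, each matching TTTGGCGC forwards and TTTCGCGC on the other strand, MCM2 held 1 such palindromic site just after its start, and MCM3 and MCM7 each held 1 site close to the start and 1 further upstream. The single MCM8 match lay beyond the printed stretch. No match was present in the MCM9 and MCM10 windows, which says only that these exact letters are missing there. CCAAT was found in 8 of the 9 windows against 34.6% of all windows, and TTTGAA in none against 15.2%. A match is a description of the sequence and not evidence of binding.

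Against the control, the HDAC inhibitors lowered nearly the whole family and mivebresib lowered a part of it. A gene was called at a Benjamini-Hochberg adjusted p below 0.05 in edgeR's quasi-likelihood test over all 15085 genes. Romidepsin lowered 8 of 9 members and raised none, where 15.8% of all tested genes were called lower and 15.2% higher. Quisinostat also lowered 8 of 9 and raised none, against 25.1% of all genes lower and 28.0% higher. Mivebresib lowered 6 of 9 and raised none, against 24.1% lower and 22.2% higher, and in a model of only the control and mivebresib libraries 4 members were called. With limma on the authors' quantile-normalized table the lower members numbered 4 for romidepsin and 3 for mivebresib. Shares of all genes called in that test and in the model of only these libraries are not given here. Those member counts therefore have no background beside them. The median log2 fold change (log2FC) of the 9 members was -1.14 for romidepsin, -2.03 for quisinostat and -0.36 for mivebresib, beside -0.01, -0.00361 and 0.00669 for all tested genes. The sign was negative for 9, 9 and 8 members. Errors of a log2FC are standard errors (SE) throughout. With the study's added threshold of a log2FC beyond 1.5, 0 members passed for romidepsin, 5 for quisinostat (MCM2, MCM4, MCM5, MCM7 and MCM10) and 0 for mivebresib, against 0.312%, 1.03% and 4.36% of all genes called lower in this way. The 3 comparisons share their control libraries, so their agreement is not independent.

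**Figure D1:**
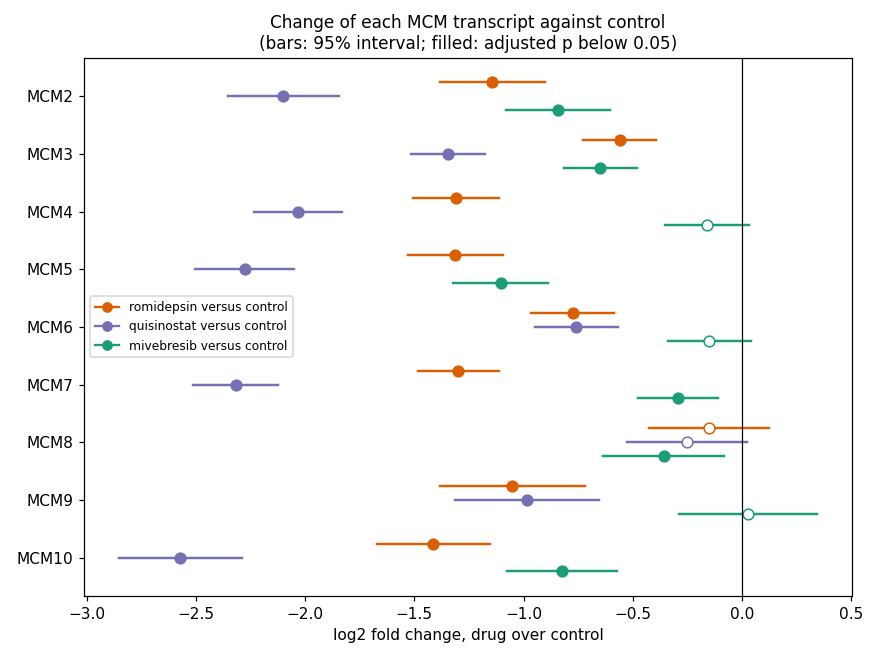
Log2 fold change of each MCM transcript against control (x axis) for romidepsin, quisinostat and mivebresib, with 95% confidence intervals as bars, n = 2 libraries per group, and filled points for adjusted p below 0.05. The quisinostat points of MCM2, MCM4, MCM5, MCM7 and MCM10 lie beyond -2, the 3 MCM8 points lie between -0.36 and -0.15, and the mivebresib points of MCM4, MCM6 and MCM9 are open.

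Among the ring subunits, MCM7, which sits beside MCM3 and MCM4 in the ring, fell furthest under quisinostat. Its level was 116 and 120 CPM in the control libraries, 48.6 and 47.4 with romidepsin, 22.3 and 25.1 with quisinostat, and 95.3 and 97.1 with mivebresib. The 4 groups did not overlap, and the quisinostat libraries were the lowest. The log2FC was -2.32 ± 0.085 (SE) for quisinostat (adjusted p = 8.42e-07), -1.30 ± 0.082 for romidepsin (adjusted p = 6.08e-05) and -0.29 ± 0.080 for mivebresib (adjusted p = 0.0159). The mivebresib call on MCM7 was lost when either mivebresib library was left out (adjusted p = 0.0811 without replicate 1 and 0.0677 without replicate 2).

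MCM5, the partner of MCM2 at the gate through which DNA enters the ring, stood at 50.9 and 57.3 CPM in the control, 21.6 and 21.9 with romidepsin, 11.3 and 11 with quisinostat, and 26.7 and 23.6 with mivebresib. All 3 drug groups lay below both control libraries. The log2FC was -1.31 ± 0.095 for romidepsin (adjusted p = 9.01e-05), -2.28 ± 0.10 for quisinostat (adjusted p = 1.65e-06) and -1.11 ± 0.095 for mivebresib (adjusted p = 4.34e-05), and MCM5 had the largest fall of the 9 members under mivebresib. MCM2, the other side of that gate and a histone-binding subunit, was at 27.7 and 29.1 CPM in the control, 12 and 13.7 with romidepsin, 6.58 and 6.66 with quisinostat, and 16.9 and 14.8 with mivebresib. Its log2FC was -1.14 ± 0.11, -2.10 ± 0.11 and -0.84 ± 0.10 for the same 3 drugs (adjusted p = 0.000195, 3.39e-06 and 0.000297).

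MCM4, one of the subunits that form the catalytic core with MCM6 and MCM7, was at 217 and 242 CPM in the control. It stood at 91.0 and 94.3 CPM with romidepsin, 57.9 and 54.2 with quisinostat, and 204 and 207 with mivebresib. It fell with romidepsin (log2FC -1.31 ± 0.086, adjusted p = 6.27e-05) and quisinostat (-2.03 ± 0.088, adjusted p = 1.62e-06). With mivebresib the log2FC was -0.16 ± 0.084 (95% interval -0.35 to 0.03, adjusted p = 0.149), although both mivebresib libraries lay under both control libraries, and it passed without control replicate 1 (-0.24, adjusted p = 0.0295).

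MCM6 had the smallest fall of the ring subunits under quisinostat. Its level was 155 and 171 CPM in the control, 97.0 and 93.4 with romidepsin, 95.5 and 97.0 with quisinostat, and 152 and 142 with mivebresib. The libraries of both HDAC inhibitors covered the same range. The log2FC was -0.77 ± 0.083 for romidepsin (adjusted p = 0.000393) and -0.76 ± 0.083 for quisinostat (adjusted p = 0.000123), and -0.15 ± 0.083 for mivebresib (95% interval -0.34 to 0.04, adjusted p = 0.171). MCM3, which pairs with MCM5 in the ring, was the ring subunit least lowered by romidepsin. It went from 136 and 144 CPM in the control to 92.9 and 96.6 with romidepsin, 54.5 and 55.5 with quisinostat, and 89.9 and 88.5 with mivebresib, with a log2FC of -0.56 ± 0.073, -1.35 ± 0.075 and -0.65 ± 0.073 (adjusted p = 0.000946, 4.12e-06 and 0.000181).

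**Figure D2:**
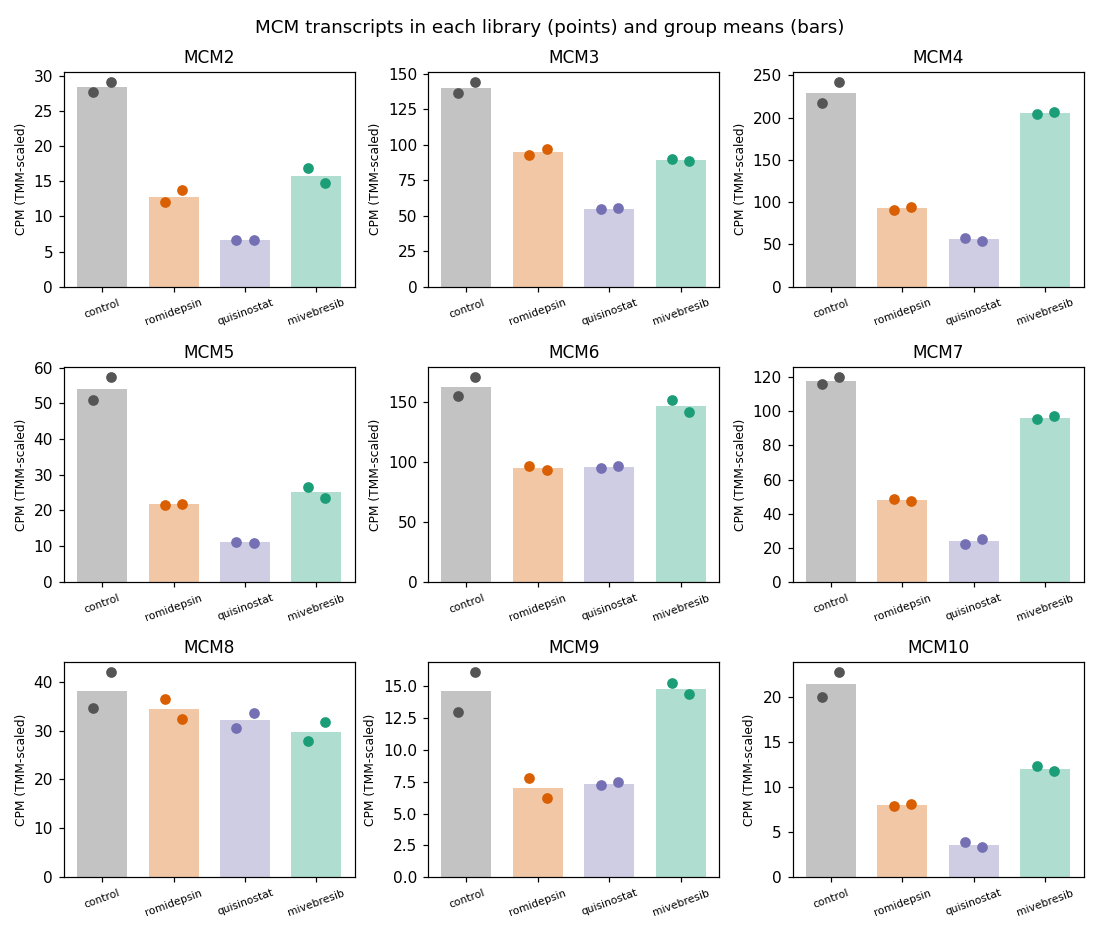
TMM-scaled CPM (y axis, from 0 in each panel) of the 9 MCM transcripts in the control, romidepsin, quisinostat and mivebresib groups; points are the 2 libraries and bars their mean. MCM2, MCM3, MCM4, MCM5, MCM7 and MCM10 are lowest with quisinostat, MCM6 and MCM9 are similarly low with both HDAC inhibitors, and MCM8 lies between 27.9 and 41.9 CPM in every library.

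The 6 ring subunits therefore did not move by equal amounts within a drug. Under mivebresib the 95% interval of MCM5 (-1.32 to -0.89) did not overlap that of MCM4 (-0.35 to 0.03), MCM6 (-0.34 to 0.04) or MCM7 (-0.48 to -0.11). Counted reads of MCM4 per read of MCM5, a ratio taken within each library, were 4.26 and 4.22 in the control, 4.20 and 4.30 with romidepsin, 5.13 and 4.90 with quisinostat, and 7.64 and 8.74 with mivebresib. The romidepsin values lay to either side of the control values, and both mivebresib libraries were above all others. Reads of MCM6 per read of MCM7 were 1.33 and 1.43 in the control, 2.00 and 1.97 with romidepsin, 4.29 and 3.87 with quisinostat, and 1.59 and 1.46 with mivebresib. Here the quisinostat libraries were the highest. These ratios are values of single libraries with no test.

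MCM10, the activator outside the ring, had the largest fall of the 9 members under both HDAC inhibitors. Its level was 20 and 22.7 CPM in the control, 7.86 and 8.16 with romidepsin, 3.86 and 3.31 with quisinostat, and 12.3 and 11.8 with mivebresib. The groups did not overlap, and the quisinostat libraries held 122 and 104 reads of the gene against 565 and 621 in the control. The log2FC was -1.41 ± 0.11 for romidepsin (adjusted p = 0.000124), -2.57 ± 0.12 for quisinostat (adjusted p = 2.36e-06) and -0.83 ± 0.11 for mivebresib (adjusted p = 0.00045).

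The recombination pair MCM8 and MCM9 differed from each other: MCM9 fell with both HDAC inhibitors, and MCM8 passed for neither. MCM8 was at 34.6 and 41.9 CPM in the control, 36.5 and 32.4 with romidepsin, 30.6 and 33.6 with quisinostat, and 27.9 and 31.7 with mivebresib. Its romidepsin libraries overlapped the control, while its quisinostat and mivebresib libraries lay below it. The log2FC was -0.15 ± 0.12 for romidepsin (95% interval -0.42 to 0.12, adjusted p = 0.37), -0.25 ± 0.12 for quisinostat (95% interval -0.53 to 0.02, adjusted p = 0.109) and -0.36 ± 0.12 for mivebresib (adjusted p = 0.0387). The mivebresib call on MCM8 was weak, being lost in 11 of the 17 alternative settings, for example without control replicate 2 (-0.22, adjusted p = 0.136), and the quisinostat difference was called without control replicate 1 (-0.39, adjusted p = 0.0146).

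MCM9, which forms the helicase with MCM8, was at 13.0 and 16.1 CPM in the control, 7.80 and 6.23 with romidepsin, 7.22 and 7.48 with quisinostat, and 15.3 and 14.4 with mivebresib. The HDAC inhibitor libraries lay well below the control, and the mivebresib libraries lay inside its range. MCM9 fell with romidepsin (log2FC -1.05 ± 0.15, adjusted p = 0.00123) and quisinostat (-0.98 ± 0.14, adjusted p = 0.000581). With mivebresib the log2FC was 0.03 ± 0.14 (95% interval -0.29 to 0.34, adjusted p = 0.887), so a change beyond this interval was not seen.

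The drugs were then compared with each other in the same model, giving 3 pairs of drugs and 9 members, with p adjusted over all 15085 genes in each pair. Romidepsin and quisinostat were given at the same dose and time, so these treatments could be compared directly. An equal dose is not an equal effect, as the paper reports that less romidepsin than quisinostat was needed to reduce MP38 viability. With a single compound of each kind, the contrast does not separate the chemical types. Quisinostat left 6 of 9 members lower than romidepsin did and none higher, against 14.6% of all genes lower and 21.0% higher. With limma on the authors' quantile-normalized values, 2 were lower, and no share of all genes is given for that test. The largest of the 6 differences in the main fit was that of MCM10 (log2 difference -1.16 ± 0.13, adjusted p = 0.000398), followed by MCM7 (-1.02 ± 0.084, adjusted p = 0.00012), MCM5 (-0.96 ± 0.10, adjusted p = 0.000302) and MCM2 (-0.96 ± 0.11, adjusted p = 0.000533). MCM3 (-0.79 ± 0.074) and MCM4 (-0.73 ± 0.086) completed the set. No difference was detected for MCM6 (0.02, 95% interval -0.17 to 0.21, adjusted p = 0.903), MCM9 (0.07, 95% interval -0.28 to 0.41, adjusted p = 0.762) or MCM8 (-0.10, 95% interval -0.38 to 0.17, adjusted p = 0.554), which leaves room for differences of the size of those intervals.

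The dose of mivebresib differed from that of the HDAC inhibitors, so its values stand beside theirs as those of 2 treatments and not as a comparison of potency. In the fit, mivebresib libraries held more than romidepsin libraries for 6 of 9 members and less for none, against 23.7% of all genes higher and 25.2% lower. MCM4 (1.15 ± 0.086), MCM9 (1.08 ± 0.15) and MCM7 (1.00 ± 0.082) differed most on the log2 scale, and MCM6 (0.62 ± 0.083) and MCM10 (0.59 ± 0.12) less. The call on MCM2 (0.30 ± 0.11, adjusted p = 0.0455) was lost in 13 of the 17 alternative settings, among them DESeq2 (0.29, adjusted p = 0.139) and the fit without romidepsin replicate 1 (0.21, adjusted p = 0.268), so the count of 6 rests on it. With limma on the authors' quantile-normalized values, 1 member was higher, again with no share of all genes given for that test. MCM3 (-0.09, 95% interval -0.26 to 0.08), MCM5 (0.21, 95% interval -0.01 to 0.43) and MCM8 (-0.21, 95% interval -0.48 to 0.07) did not pass. Against quisinostat, mivebresib libraries held more of 8 of 9 members and less of none, against 26.2% of all genes higher and 31.5% lower, and MCM7 (2.02 ± 0.085), MCM4 (1.87 ± 0.088) and MCM10 (1.75 ± 0.13) differed by more than 1.5. The exception was MCM8 (-0.11, 95% interval -0.38 to 0.17, adjusted p = 0.474).

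**Figure D3:**
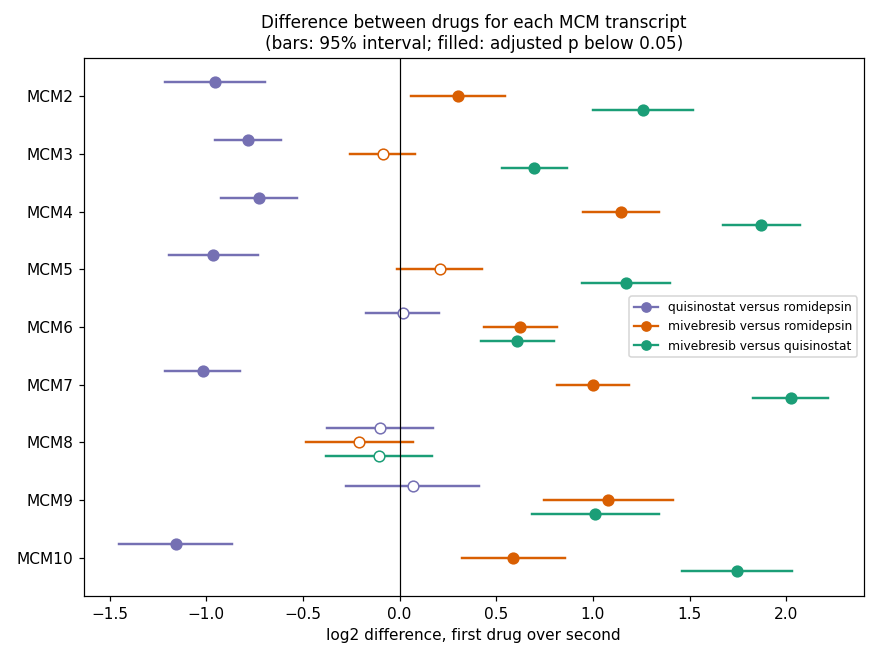
Log2 difference of each MCM transcript between drugs (x axis, first drug over second) with 95% confidence intervals as bars, n = 2 libraries per group, and filled points for adjusted p below 0.05. Quisinostat over romidepsin is near 0 for MCM6 (0.02), MCM8 (-0.10) and MCM9 (0.07) and between -1.16 and -0.73 for the other 6 members.

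These pairwise tests place the members' levels in order over the 4 treatments. For MCM4, MCM7 and MCM10 the order was control, mivebresib, romidepsin, quisinostat, and each pair of neighbours differed past the threshold except control and mivebresib for MCM4. For MCM2 and MCM5 it was the same order, with the step from mivebresib to romidepsin weak for MCM2 and not passed for MCM5, and for MCM3 romidepsin and mivebresib were level within their intervals. For MCM6 and MCM9 the control and mivebresib stood above both HDAC inhibitors, with no detected difference inside either pair.

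Divided by the merged exon length of each gene, levels can be set beside each other across members. In the control, MCM4 had the highest level at 52.8 ± 4.07 CPM per kb (SD, n = 2), followed by MCM6 and MCM3 at 43.6 ± 3.03 and 43.6 ± 1.76, MCM7 at 32.3 ± 0.774, MCM5 at 15.3 ± 1.28 and MCM2 at 7.84 ± 0.273. MCM8 was at 4.97 ± 0.671, MCM10 at 4.60 ± 0.411 and MCM9 at 2.36 ± 0.356 CPM per kb. MCM3 and MCM6 did not differ beyond their spread, nor did MCM8 and MCM10. The subunits of a ring that holds 1 copy of each thus had transcript levels that differed by 6.54 and 6.94 times between MCM4 and MCM2 in the control libraries, a statement on mRNA per length and not on protein. With the longest coding transcript as the length, MCM7 stood at 38.3 CPM per kb and the order of the ring subunits was the same.

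The spread between subunits was wider in every drug library than in either control library, a description with no test. The highest ring subunit exceeded MCM2, the lowest in all 8 libraries, by 8.73 and 7.96 times with romidepsin, 14.1 and 14.1 times with quisinostat, and 10.1 and 11.7 times with mivebresib. The top place was held by MCM4 in the control and mivebresib libraries, by MCM3 with romidepsin and by MCM6 with quisinostat. MCM6 made up 22.3% ± 0.282 of the summed level per length of the 6 subunits in the control and 38.3% ± 0.183 with quisinostat (SD, n = 2), while MCM7 went from 16.6% ± 0.547 to 9.64% ± 0.738. The summed level of the 6 subunits was 196 ± 10.6 CPM per kb in the control, 99.2 ± 0.919 with romidepsin, 67.3 ± 0.424 with quisinostat and 152 ± 2.12 with mivebresib, which is 50.7%, 34.4% and 78.0% of the control.

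**Figure D4:**
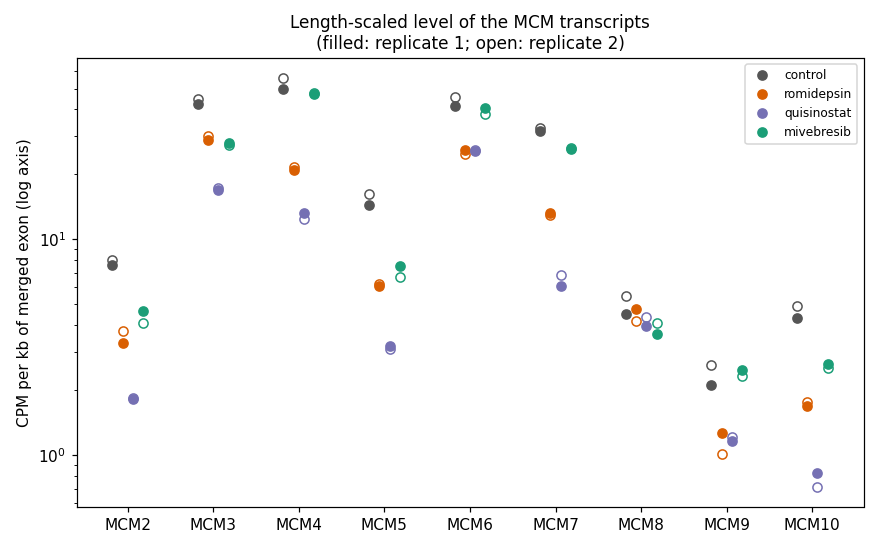
CPM per kb of merged exon (log axis) for each MCM transcript in each library, coloured by treatment, with filled points for replicate 1 and open points for replicate 2. MCM3, MCM4, MCM6 and MCM7 lie above 30 CPM per kb in the control, MCM5 and MCM2 lie lower, and MCM8, MCM9 and MCM10 lie under 6 in every library.

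Across the 8 libraries, which fall into 4 pairs by treatment, MCM10 tracked the mean log2 CPM of the 6 ring subunits with a Pearson r of 0.996, MCM9 with 0.832 and MCM8 with 0.358. MCM9 was closest to MCM6 (r = 0.977), MCM4 to MCM7 (0.99) and MCM2 to MCM5 (0.993). Among all other tested genes, the patterns most like the ring mean were those of PTBP1 (r = 0.9988), a splicing regulator, WDR62 (0.9965), a spindle pole protein, CASC3 (0.9953), a component of the exon junction complex, MASTL (0.994), a mitotic kinase, and HNRNPF (0.994), an RNA-binding protein. MCM10 was matched best by TACC3 (0.9967), a spindle protein, RAD54L (0.9966), a recombination motor, and ZNF131 (0.9952). MCM9 was matched best by SETD1B (0.9863), a histone methyltransferase, HSPA8 (0.9846), a chaperone, and HCFC1 (0.9825), a transcriptional co-regulator. MCM8 was matched best by COL9A3 (0.9727), a collagen chain, COX4I1P2 (0.9642), a pseudogene whose reads can be shared with its parent gene, and TMF1 (0.962). COX4I1P2 had a mean log2 CPM of only -1.03, so its match rests on few reads. With 4 treatments and 15085 genes to choose from, such values describe a pattern over libraries that share their treatments and carry no test.

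The members lie apart in the genome. On GRCh38 (GENCODE 29), MCM2 occupies chr3:127598223-127622436 on the plus strand, MCM3 chr6:52264009-52284881 on the minus strand, MCM4 chr8:47960185-47978160 on the plus strand, MCM5 chr22:35400063-35425430 on the plus strand, MCM6 chr2:135839626-135876426 on the minus strand and MCM7 chr7:100092728-100101940 on the minus strand. MCM8 occupies chr20:5950652-5998977 on the plus strand, MCM9 chr6:118813442-118935162 on the minus strand and MCM10 chr10:13161554-13211104 on the plus strand.

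Several members share their start or their bases with another gene, and whether the counting used strand was not given in the sources used here. AP4M1, a subunit of an adaptor complex, overlaps MCM7 on the opposite strand, and its counts also fell with romidepsin, quisinostat and mivebresib (log2FC -1.02 ± 0.11, -0.41 ± 0.11 and -0.45 ± 0.11, adjusted p = 0.000381, 0.0105 and 0.00856). Between the HDAC inhibitors AP4M1 was higher with quisinostat (log2 difference 0.61 ± 0.11, adjusted p = 0.00361), the direction opposite to that of MCM7. ASF1A, a histone chaperone that overlaps MCM9 on the opposite strand, moved against it, rising by 0.49 ± 0.11 with romidepsin (adjusted p = 0.012) and 0.79 ± 0.11 with quisinostat (adjusted p = 0.000475). TPRA1, which overlaps the start of MCM2 on the other strand with 44 bases between the starts, had a log2FC of 0.10, -0.18 and 0.30 for romidepsin, quisinostat and mivebresib and passed for none. PRKDC, a DNA repair kinase whose start lies 2 bases from that of MCM4, had a log2FC of -0.10, -0.46 and -0.05 and passed for none. TRMT6, 94 bases from the start of MCM8 and encoding a tRNA methyltransferase subunit, passed for mivebresib alone (-0.33 ± 0.086, adjusted p = 0.0124).

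The list counts that follow are read against the shares of all tested genes called lower (15.8%, 25.1% and 24.1% for romidepsin, quisinostat and mivebresib) and higher (15.2%, 28.0% and 22.2%). Of 10 origin licensing genes, which load the ring onto origins, romidepsin lowered 6 and raised 2, quisinostat lowered 8 and raised 1, and mivebresib lowered 3 and raised 1, with a median log2FC of -0.40, -0.56 and -0.03. The mivebresib counts are near or under the shares of all genes. ORC1, the origin recognition subunit whose level varies with the cell cycle, fell with romidepsin, quisinostat and mivebresib (log2FC -1.65 ± 0.13, -1.85 ± 0.13 and -0.98 ± 0.12, adjusted p = 0.000112, 1.04e-05 and 0.000288). CDC6, a loading factor, fell with the same drugs (log2FC -1.03 ± 0.073, -1.48 ± 0.074 and -0.51 ± 0.072, adjusted p = 7.95e-05, 2.6e-06 and 0.000593), and CDT1, which brings the ring to the origin, fell likewise (log2FC -1.39 ± 0.17, -1.55 ± 0.17 and -0.60 ± 0.16, adjusted p = 0.000735, 0.000129 and 0.0163). ORC4 rose with all 3 drugs, by 0.89, 0.66 and 0.84, and ORC2 rose with romidepsin by 0.25; the values of ORC2, and of ORC4 with the HDAC inhibitors, were picked out after they were seen.

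The partners that turn the loaded ring into an active helicase were lowered in most cases. Of 17 such genes, romidepsin lowered 16, quisinostat 16 and mivebresib 10, with none higher and medians of -0.56, -0.83 and -0.49. CDC45, a subunit of the active helicase, fell with romidepsin, quisinostat and mivebresib (log2FC -1.09 ± 0.16, -2.42 ± 0.17 and -0.91 ± 0.16, adjusted p = 0.00146, 1.21e-05 and 0.0016). GINS2 fell with each (log2FC -1.24 ± 0.19, -2.08 ± 0.21 and -1.40 ± 0.20, adjusted p = 0.00228, 6.96e-05 and 0.000591), and so did GINS1, of the same complex (log2FC -0.76 ± 0.095, -0.90 ± 0.095 and -1.31 ± 0.098, adjusted p = 0.00075, 9.83e-05 and 2.13e-05). Claspin (CLSPN), a fork checkpoint mediator, fell with romidepsin and quisinostat (log2FC -1.21 ± 0.12 and -2.10 ± 0.12, adjusted p = 0.000226 and 4.73e-06), and its log2FC with mivebresib was 0.21 ± 0.11 (adjusted p = 0.156). TIMELESS likewise fell with romidepsin and quisinostat (log2FC -0.68 ± 0.098 and -1.86 ± 0.10, adjusted p = 0.00153 and 4.1e-06). With mivebresib its log2FC was 0.03 ± 0.097 (adjusted p = 0.821).

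Of 24 replicative polymerase and fork genes, romidepsin lowered 15, quisinostat 20 and mivebresib 10, again with none higher and medians of -0.59, -0.75 and -0.19. POLE2, an accessory subunit of the leading-strand polymerase, fell with all 3 (log2FC -0.84 ± 0.19, -1.58 ± 0.20 and -0.86 ± 0.19, adjusted p = 0.0112, 0.000269 and 0.00618), and FEN1, the flap nuclease, fell likewise (log2FC -0.74 ± 0.086, -1.32 ± 0.088 and -0.77 ± 0.087, adjusted p = 0.000579, 8.79e-06 and 0.00017). Of 11 recombination genes that work with MCM8 and MCM9, romidepsin lowered 6, quisinostat 9 and mivebresib 3, and mivebresib raised 1 (NBN, log2FC 0.25), counts that for mivebresib are close to or under the shares of all genes. HROB, the loader of the MCM8 and MCM9 helicase, is listed under its older symbol C17orf53 and fell with all 3 (log2FC -1.17 ± 0.16, -1.29 ± 0.16 and -1.01 ± 0.16, adjusted p = 0.0011, 0.000223 and 0.000987).

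Of 22 E2F and DREAM regulators, which control transcription of the ring genes, 11 were lower and 1 higher with romidepsin, 13 lower and 4 higher with quisinostat, and 11 lower and 3 higher with mivebresib. E2F1, an activator, fell with all 3 drugs (log2FC -1.21 ± 0.10, -1.88 ± 0.11 and -0.78 ± 0.10, adjusted p = 0.000148, 4.67e-06 and 0.00039). E2F2, another activator, fell with romidepsin, quisinostat and mivebresib (log2FC -1.29 ± 0.095, -1.85 ± 0.097 and -2.60 ± 0.11, adjusted p = 9.03e-05, 3.38e-06 and 1.52e-06), and it was lower with mivebresib than with romidepsin (-1.31 ± 0.11, adjusted p = 3.23e-05). Of the repressive members, E2F8 fell with all 3 (log2FC -1.49 ± 0.22, -1.70 ± 0.22 and -2.65 ± 0.25, adjusted p = 0.00175, 0.000319 and 7.26e-05). E2F7 had a log2FC of -0.08 ± 0.14 with romidepsin (adjusted p = 0.676) and rose with quisinostat (0.81 ± 0.13, adjusted p = 0.00107) and mivebresib (1.39 ± 0.13, adjusted p = 6.9e-05). MYBL2, a cell cycle activator that joins the same complex, fell with all 3 drugs (log2FC -1.48 ± 0.12, -2.69 ± 0.13 and -1.35 ± 0.12, adjusted p = 0.000124, 2.43e-06 and 5.2e-05). CCNE2 fell with romidepsin and quisinostat (log2FC -1.64 ± 0.10 and -1.82 ± 0.10, adjusted p = 6.08e-05 and 4.27e-06). With mivebresib its log2FC was -0.17 ± 0.094 (adjusted p = 0.166). The other genes that rose, picked out after their values were seen, were TFDP2 with all 3 drugs (0.97, 1.26 and 0.55), E2F5 and RBL2 with quisinostat (0.74 and 0.35) and CCND1 with mivebresib (0.36).

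General proliferation markers fell beside the family. Of 10, all 10 were lower with romidepsin and with quisinostat and 9 with mivebresib, with medians of -0.80, -1.49 and -0.71, beside -1.14, -2.03 and -0.36 for the MCM members. RRM2, a ribonucleotide reductase subunit, fell with all 3 drugs (log2FC -1.45 ± 0.076, -2.59 ± 0.079 and -1.03 ± 0.075, adjusted p = 3.64e-05, 6.49e-07 and 1.83e-05), and so did CCNA2, the S and G2 phase cyclin (log2FC -1.08 ± 0.078, -1.47 ± 0.079 and -1.13 ± 0.078, adjusted p = 9.01e-05, 3.63e-06 and 1.5e-05). The part that a change in the share of cycling cells had in the MCM values was not tested. MCM3AP, whose gene product binds MCM3, and MCMDC2, a meiotic relative, share a name or domain with the family and did not pass. For romidepsin, quisinostat and mivebresib the log2FC of MCM3AP was -0.03, -0.14 and 0.02 (adjusted p = 0.865, 0.255 and 0.887), and that of MCMDC2 was -0.45, -0.39 and -0.39 (adjusted p = 0.127, 0.132 and 0.149).

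**Figure D5:**
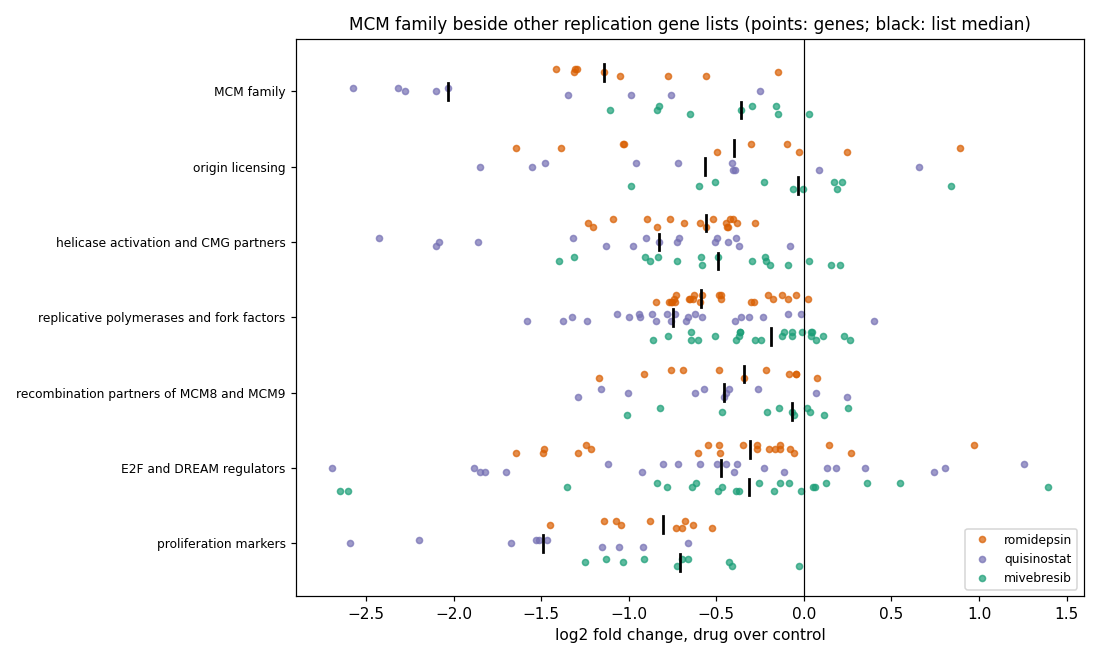
Log2 fold change against control (x axis) of every tested gene in the MCM family and 6 other lists (rows) for romidepsin, quisinostat and mivebresib; points are genes and black bars list medians. The MCM family medians are -1.14, -2.03 and -0.36, and with quisinostat no other list has a median below -1.49.

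Some cell-type and identity markers also moved with the drugs. Of 6 tested melanocyte markers, romidepsin lowered 1, quisinostat 3 and mivebresib 4. The romidepsin count is near the 15.8% of all genes called lower. SOX10, a lineage factor, fell with all 3 drugs (log2FC -0.39, -0.92 and -1.93). Of the 4 tested markers of other cell types, romidepsin raised 1, quisinostat 3 and mivebresib 1 and none fell. For romidepsin and mivebresib, 1 gene of so short a list is close to the shares of all genes called higher (15.2% and 22.2%). The 3 of 4 with quisinostat lie above its share of 28.0%. The rest of the 11 markers had too few reads to be tested, so a fall in them could not be seen. PECAM1, raised by quisinostat, had 2 and 5 control reads and 11 and 17 with the drug. COL1A1, a fibroblast collagen with 40 and 45 control reads, rose by 1.51 with romidepsin and 2.58 with quisinostat. With mivebresib its log2FC was -0.15 (adjusted p = 0.721), and COL3A1, another collagen, held 0 to 4 reads per library. Their part in the MCM values was not tested.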

How the data were processed

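MP38 cells were profiled by bulk mRNA sequencing in 8 libraries, 4 groups of 2. The authors deposited counts per gene symbol without normalization, a log10 table that equals log10(CPM + 1) of those counts, and a quantile-normalized table deposited as a score of unnamed scale. The build is hg38 per the submitters' processing notes; the aligner is not given in the sources used here. The test was that of edgeR 4.0.16 in R 4.3.3, with TMM, filterByExpr and quasi-likelihood. It used 1 model with 4 residual degrees of freedom and Benjamini-Hochberg over 15085 genes. CPM are TMM-scaled except in the marker sums, and intervals cover 95%. In simulated counts for quisinostat against control, 97 of 14688 genes were changed by 1 and 96 by 2 on the log2 scale. Of these 72 (74.2%) and 89 (92.7%) were recovered, beside 16 false calls. A far smaller share of genes was changed there than was called in the data (25.1% lower and 28.0% higher), so these rates may not carry over. The family, whose members were then taken by name, and the lists were chosen with earlier results of these data known. All members are named, and from each list at most 4 called genes per comparison by size of change, besides those said to be picked later; likeness is Pearson r of log2 CPM with a prior count of 2. HROB and MRE11 were matched as C17orf53 and MRE11A. 1 gene planned for the recombination list is not reported here. Alternatives were DESeq2 1.42.0, limma 3.58.1 (voom, and on the quantile table), 2 scalings, 2 filters, 4 libraries only, a replicate block, other thresholds and each library left out. Same-numbered replicates deviated together with r between -0.162 and 0.158, and the labels give only a number, so no pairing was assumed.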

Additional observations from a re-analysis of the deposited data

How the results depend on the processing

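With 2 libraries per group, 1 library can decide a call. Of the member counts and medians, 262 values under alternative settings kept their direction and size within 1.5 times or 1 SD, and 16 moved. The 262 include member counts of 0 that stayed at 0, so the total overstates how firm the calls are. The quantile-normalized table was tested by limma with no fold change, since its scale is not named. There romidepsin lowered 4 members and mivebresib 3, quisinostat was below romidepsin for 2, and mivebresib above romidepsin for 1. The cause was not tested, and shares of all genes called under the alternative settings are not given beside the member counts. A log2FC beyond 1.5 left romidepsin with 0 lower members, quisinostat with 5 and mivebresib with 0, and gave 0 lower for quisinostat against romidepsin, 0 higher for mivebresib against romidepsin and 3 higher for mivebresib against quisinostat. The quisinostat median was -1.83 with library size alone, -1.90 with upper-quartile factors and -1.94 at a mean CPM of at least 5; library size alone also moved the median of all genes from -0.00361 to 0.196, and quisinostat still lowered 8 members. Leaving out 1 library gave medians of -1.24 to -1.11 for romidepsin, -2.12 to -1.96 for quisinostat and -0.49 to -0.28 for mivebresib, and 8, 8 to 9 and 4 to 7 members lower; the lone library left in a group is assumed to vary like the others.

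Signs turned for 4 differences near 0, and the cause was not tested. MCM6 between quisinostat and romidepsin became -0.0114 with DESeq2, -0.0236 in its 4 libraries, and ran from -0.0313 to 0.0376 with 1 library left out. MCM8 became 0.0273 with library size alone and MCM9 ran from -0.0896 to 0.232 with 1 library left out. MCM9 with mivebresib against control ran from -0.115 without control replicate 1 to 0.183 without control replicate 2.

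With a replicate block, 8, 8 and 6 members were lower for romidepsin, quisinostat and mivebresib, and the call on MCM2 for mivebresib against romidepsin was lost (0.30, adjusted p = 0.0581); no other member call changed. Crossing the numbers, an alternative added after seeing the data, called, in the 4 libraries of each comparison, 5772 genes against 2350 with the block and 2543 without it for romidepsin against control, and 9182 against 6093 and 7296 for quisinostat against romidepsin, the pairs with r below -0.1. Crossing gave fewer calls than the block for quisinostat (5562 against 8598) and mivebresib (4899 against 6682) over control and for mivebresib over quisinostat (9309 against 10673), and more for mivebresib over romidepsin (9559 against 7648). Called members with the block, crossed and without it were 7, 8 and 8 for romidepsin and 6, 4 and 4 for mivebresib over control. They were 6, 7 and 6 for quisinostat over romidepsin and 5, 8 and 5 for mivebresib over romidepsin. Quisinostat over control and mivebresib over quisinostat stayed at 8.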
